A study of Homo sapiens with 12 samples.

Results

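The part of the series described here sets one negative control oligonucleotide against another. It holds 6 of the 12 arrays, chosen by their titles: 3 arrays of cells given LNA-miR-NC, called LNA-NC here, and 3 arrays of cells given NC, which the labels call AllStar-NC. Each oligonucleotide was used once in each of the human lung cancer lines A549, PC14 and PC14CDDP, so that each line gives 1 LNA-NC and 1 NC array, and the cell line serves as the replicate. The other 6 arrays of the series hold the same lines after pre-miR-197 or LNA-miR-197. All 12 cultures received their oligonucleotide at 25 nM with the lipid reagent DharmaFECT 1, and 100 ng of total RNA was hybridised to a 1-colour Agilent array. No array of untransfected or mock-transfected cells was analysed here, so the data show how the controls differ and not which of them departs from untreated cells. PC14CDDP is a cisplatin-resistant line with PC14 as its parent, so the 3 lines are not fully independent.

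A negative control oligonucleotide is meant to enter the cell as the active molecule does, without a match to a transcript of interest. Locked nucleic acid (LNA) is a modified nucleotide whose sugar is bridged, and LNA inhibitors are short single strands that pair with a microRNA and block it, whereas pre-miR molecules are made to be loaded onto Argonaute as a microRNA is. Neither control is directed at miR-197. The sequences of the oligonucleotides were not given in the sources used here.

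Levels are log2 of the processed signal minus the log2 of the array's 75th percentile, so that 0 is the level of the 75th percentile of that array, and a difference of 1 is a 2-fold difference. limma was fitted to all 12 arrays with transfection and cell line as terms, and a gene was called when its p-value, adjusted by the method of Benjamini and Hochberg over the 24858 genes tested, was under 0.05. The 75th percentile of the arrays lay between 613 and 719 signal units and 55.8% to 63.1% of probes were well above background. The 75th percentile, to which all levels are relative, was 631 to 645 on the NC arrays and 671 to 705 on the LNA-NC arrays. It was higher with LNA-NC by 48.3, 59.8 and 39.4 units in A549, PC14 and PC14CDDP. Slide position followed the transfection in every line, NC in column 2 and LNA-NC in column 4, so that position and oligonucleotide cannot be told apart. All A549 arrays were on 1 slide and all PC14 and PC14CDDP arrays on another. Where A549 differs from the other lines, line and slide therefore cannot be told apart. The epithelial keratins KRT7, KRT8, KRT18 and KRT19 were well above background on all 6 control arrays. The fibroblast genes were mixed: COL1A1 was well above background on all 6 as well, while COL1A2, DCN and PDGFRB were not on any of them. The epithelial genes EPCAM and CDH1 were above it on 2 of 3 arrays of each control.

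The controls differed in a small set of genes, most of them dim and most of them higher with LNA-NC. Of the genes tested, 113 were called higher on the LNA-NC arrays (0.455%) and 44 lower (0.177%), and each of the 157 had 1 direction across the 3 lines. The genes called higher had a median log2 difference of 1.96 and reached 7.25, and 55 of them differed by at least 4-fold. The genes called lower had a median of -1.28 and went down to -2.38, and 6 of them differed by at least 4-fold. Over all genes tested the median difference was -0.04. With normexp in place of the scanner's background correction the split was 167 higher and 28 lower, with 95 of the 157 among them. No gene was called when A549 or PC14CDDP was left out, and 6 were called without PC14, in fits that rest on 2 lines. All 157 had an unadjusted p under 0.05 in each of these fits, but they were picked by p from the same arrays. Their direction could not change there, since each had 1 direction across the 3 lines. A fit to the 6 control arrays alone called 0 genes (3980 at an unadjusted p under 0.05), and with the slide in place of the cell line as block 44 of the 157 were called.

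**Figure D1:**
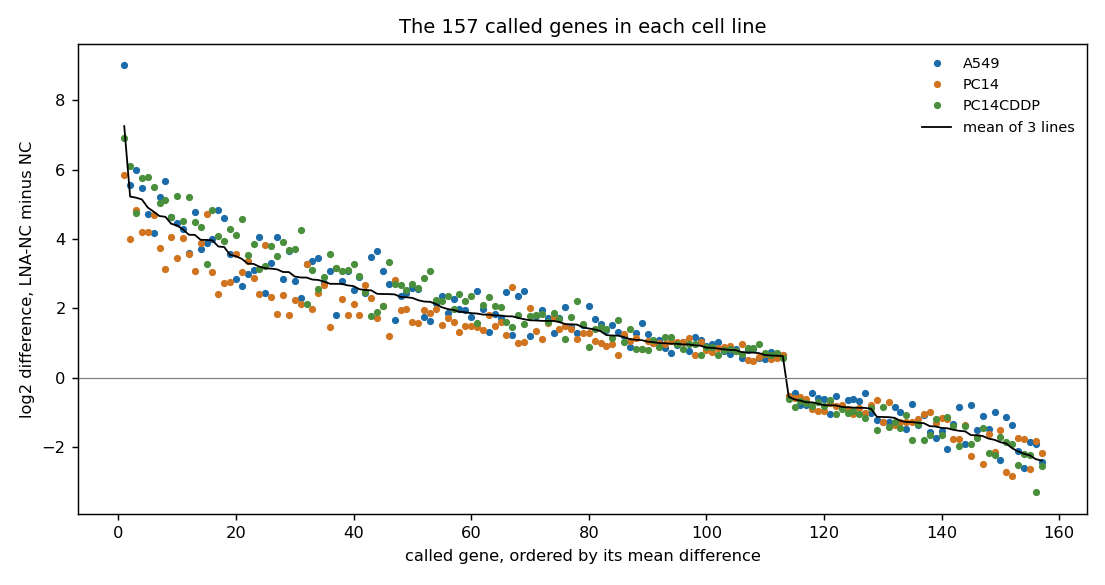
Log2 difference between the LNA-NC and the NC array of each cell line (vertical axis, coloured points) for the 157 called genes, ordered along the horizontal axis by their mean (black line). The 113 genes on the left lie above 0 in all 3 lines and the 44 on the right below 0 in all 3 lines.

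The locus with the largest increase was XLOC_009167, a catalogued long intergenic noncoding RNA locus on chromosome 11. On the NC arrays of A549, PC14 and PC14CDDP, in this order here and below, its level was -6.47, -5.38 and -6.42, and on the LNA-NC arrays 2.53, 0.47 and 0.48. The groups were far apart, and with NC the probe was well above background on 1 of 3 arrays. The log2 difference was 7.25 ± 0.52 (SE, n = 3 lines, limma adjusted p = 0.00336). XLOC_012078 on chromosome 17 lay at -6.19, -5.38 and -5.56 with NC and at -0.64, -1.37 and 0.54 with LNA-NC, a difference of 5.22 ± 0.58 (limma adjusted p = 0.0123). XLOC_004420 on chromosome 5 was not well above background on any NC array and was above it on all 3 LNA-NC arrays, at least 8.7-fold higher (limma adjusted p = 0.00848).

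The probes that measured these loci are shown because these loci are among the genes with larger increases and decreases and have no familiar gene name. They are 60 bases long, copied from the array files and written 5′ to 3′ in lower case with no part marked. The first 3 belong to loci called higher and the last 3 to loci called lower. The positions are those the files give on hg19, on the plus strand in every case, and where a span is over 60 bases the files place the probe over an interrupted stretch.
XLOC_009167, chr11:65220720-65220779: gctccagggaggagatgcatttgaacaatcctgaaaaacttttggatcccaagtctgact
XLOC_012078, chr17:2591845-2592089: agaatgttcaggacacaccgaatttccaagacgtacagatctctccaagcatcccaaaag
XLOC_004420, chr5:70966370-70966429: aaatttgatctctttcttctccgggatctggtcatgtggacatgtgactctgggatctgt
XLOC_001392, chr2:22704805-22704864: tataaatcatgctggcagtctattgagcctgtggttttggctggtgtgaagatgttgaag
XLOC_002989, chr3:194682071-194686205: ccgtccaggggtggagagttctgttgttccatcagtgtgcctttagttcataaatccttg
XLOC_010367, chr13:43787505-43787647: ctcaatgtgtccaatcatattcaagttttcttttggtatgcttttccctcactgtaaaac
The probes of the genes called higher had a median GC content of 43.3% and those of the genes called lower 45.0%, beside 45.0% over all genes tested.

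Of the 113 genes called higher, 78 were protein-coding (69.0%, beside 62.1% of all genes tested), and several of these are best known from tissues other than lung. FAM83E, a member of a family of proteins that bind casein kinase 1, measured -3.43, -5.30 and -4.57 with NC and 1.28, -1.09 and 1.22 with LNA-NC. Its log2 difference was 4.91 ± 0.54 (limma adjusted p = 0.0123). HCLS1, a cortactin relative of blood cells, measured -3.46, -3.38 and -4.34 with NC and 1.02, 0.09 and 0.89 with LNA-NC. For both genes every LNA-NC array lay above every NC array, and the lowest LNA-NC array of FAM83E was that of PC14. CHRNA10, a nicotinic acetylcholine receptor subunit of cochlear hair cells, had the most even differences of the genes named for large increases, 2.74, 2.68 and 2.90 in A549, PC14 and PC14CDDP (limma adjusted p = 0.00336). LGALS4, a galectin of the gut epithelium, rose by 8.27-fold and CFP, the complement regulator properdin, by 6.34-fold. FOXD4, a forkhead factor with near-identical copies in the genome whose signals on the probe may not be separable, rose by 11.3-fold.

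Some of the genes called higher act in meiosis, in the piRNA pathway or in cilia and sperm tails. MSH4, which stabilises crossover intermediates in meiosis, was not well above background with NC, at -8.04, -7.95 and -7.62, and lay at -3.40, -3.89 and -3.0 with LNA-NC. This was at least 6.4-fold higher. TERB1, which ties telomeres to the nuclear envelope in meiosis, was at least 5.26-fold higher, and SYCP3, of the synaptonemal complex, and REC8, the meiotic cohesin, were called as well. MSH4 and TERB1 were well above background on the LNA-NC arrays alone and entered the test through them, so no p is given for them. REC8 lay near the 75th percentile with both controls and its log2 difference was 0.94 ± 0.13. PNLDC1, which trims piRNA 3′ ends, measured -6.26, -7.50 and -7.26 with NC and -2.09, -2.80 and -1.76 with LNA-NC, at least 14.8-fold higher. GCNA, a germ cell nuclear protein, went from -1.97, -0.57 and -1.08 to 2.09, 1.84 and 2.05, and here the 3 LNA-NC arrays lay within a narrow span above the NC arrays. TEKT2, a tektin of sperm and cilium microtubules, was at least 12.1-fold higher, and CFAP251, a protein of the axoneme, rose by 9.73-fold. A second probe of CFAP251 rose by 4.40, 3.04 and 4.61 log2 units in A549, PC14 and PC14CDDP. Most genes of these processes were not called: of the members tested, 4 of 35 in a meiosis list, 2 of 12 in a piRNA list and 5 of 27 in a cilium list were called higher and none (0) lower, beside 0.455% and 0.177% of all genes tested. These lists, and MSH4, TERB1, SYCP3 and REC8 as examples, were chosen after the values were seen. Of the 4 meiosis genes called, MSH4, TERB1 and SYCP3 would not have passed the filter without the LNA-NC arrays, on which they were higher. REC8 would have passed. The list counts are therefore a description and no support for a shared process.

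**Figure D2:**
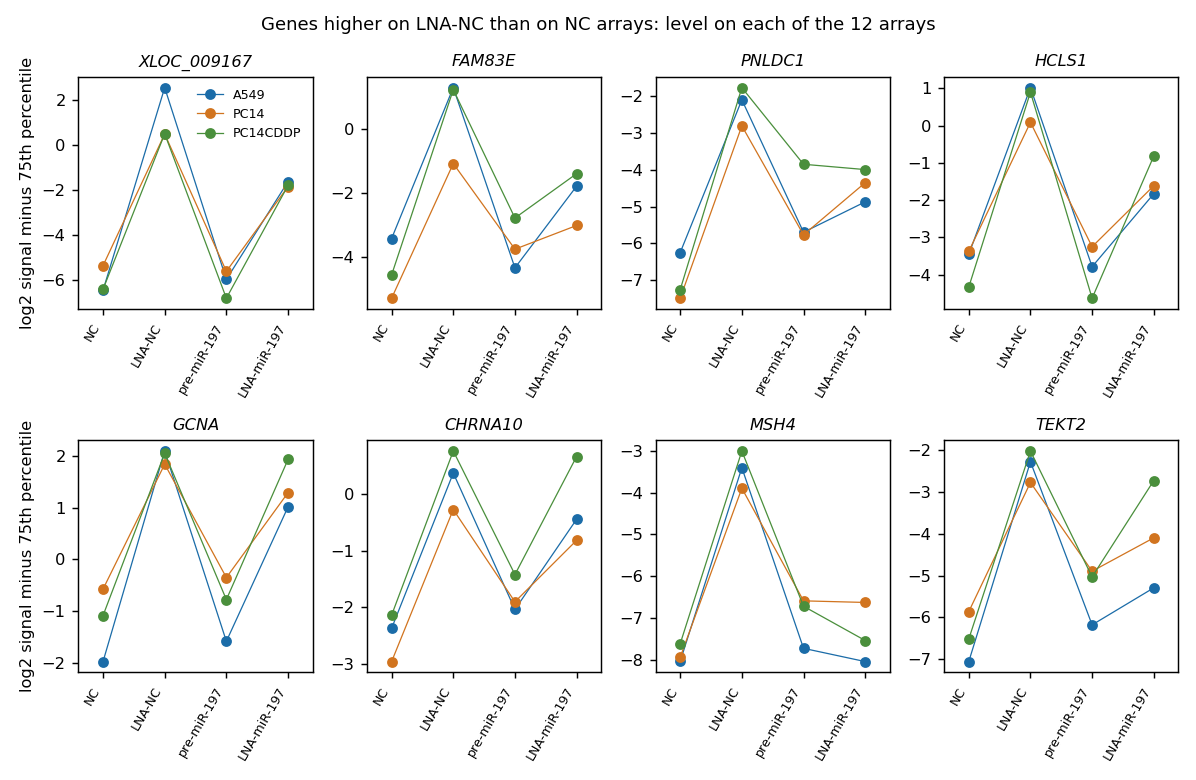
Level of 8 genes on each of the 12 arrays, as log2 signal minus the array's 75th percentile (vertical axis), by transfection (horizontal axis), with lines joining the 4 arrays of a cell line. Each LNA-NC array lies above each NC array. The LNA-miR-197 arrays lie between the controls for GCNA and CHRNA10, and for MSH4 the LNA-NC arrays alone were well above background.

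Genes of muscle, nerve and testis with no signal above background on the NC arrays completed the set with the largest bounds. PYGM, the glycogen phosphorylase of muscle, was at least 15-fold higher with LNA-NC, GRM2, a metabotropic glutamate receptor, at least 13.4-fold, and ACTL7B, an actin-like protein of the testis, at least 13.4-fold. Of the 113 genes called higher, 28 were not well above background on any NC array and 0 were so on all LNA-NC arrays, and 72 were well above it on all 6 control arrays. Of the 113, 16 would not have passed the filter without the LNA-NC arrays, GRM2, MSH4, TERB1 and SYCP3 among them, and of the 44 called lower 8 would not have passed without the NC arrays. SMARCA4, the ATPase of the SWI/SNF chromatin remodeller, was a bright member, at 1.61, 3.31 and 2.88 with NC and 2.42, 3.84 and 3.74 with LNA-NC, a difference of 0.73 ± 0.12 (limma adjusted p = 0.0498). This is a shift of 1.66-fold, within the range of levels across lines but in the same direction in each. SMARCA4 was named after its values were seen.

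Where a gene called higher had another probe that passed the filter, that probe mostly moved the same way. There were 23 such probes for 19 genes, and 18 of them were higher with LNA-NC in all 3 lines, against 17.2% of all probes that passed. CYP2D6, a hepatic drug-metabolising enzyme with near-identical pseudogenes, had a second probe that rose by 2.14 on the log2 scale on average, and the second probe of the apolipoprotein gene APOA1 rose by 2.59. IFFO1, an intermediate filament family member, was an exception. Its main probe measured -2.06, -3.60 and -0.54 with NC and 1.84, 1.13 and 2.76 with LNA-NC, a difference of 3.97 ± 0.34 (limma adjusted p = 0.00484), while its second probe differed by -0.37, -0.35 and 1.22 in the 3 lines. For the genes called lower there were 3 other probes. Of these 0 were lower and 2 were higher in all 3 lines, beside 26.5% of all probes that were lower in all of them.

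The genes called higher lay downstream of a bright gene on the same strand more often than all genes tested, though many of them did not. On hg19 the nearest bright gene upstream on the same strand, with a probe whose mean level was above the 75th percentile, lay within 50 kb of 61 of the 112 genes with coordinates, or 54.5%. The same held for 18.2% of all genes tested and for 1 of 43 genes called lower (2.33%). Distances are between the centres of probes. On the other sides the shares were nearer to the whole: a bright gene lay downstream on the same strand of 22.3% (all genes, 16.9%), upstream on the opposite strand of 9.82% (14%) and downstream on the opposite strand of 25.0% (23.9%). Among dim genes, with a mean level under -3, the share with a bright gene upstream was 63.5% of 52 genes called higher and 14.8% of 9604 tested. The rule for a neighbour was chosen after the values were seen, and the shares are a description with no test.

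The upstream neighbours themselves differed little on average over the lines. The 61 genes had 60 different upstream neighbours, at a median distance of 15.5 kb and with a median level of 2.64. Between the controls they differed by -0.30 to 0.54 on the log2 scale, the median being -0.01, and 0 of the 60 were called. XLOC_009167 lay 13.9 kb beyond a probe of NEAT1, the nuclear paraspeckle RNA, which differed by -0.13 on average and by -0.77 to 0.64 across the lines. A bright locus on the same strand, XLOC_l2_002351, lay 2.23 kb downstream of XLOC_009167, at a level of 1.89, and was higher by 1.44 with LNA-NC. XLOC_012078 lay 3.17 kb beyond PAFAH1B1, the dynein regulator LIS1, which differed by -0.12. FAM83E lay 15.5 kb beyond RPL18, a ribosomal protein gene with a level of 7.43, PYGM 18.0 kb beyond the splicing factor gene SF1, PNLDC1 21.0 kb beyond MRPL18, CHRNA10 9.74 kb beyond the nucleoporin gene NUP98 and TEKT2 32.2 kb beyond AGO3. NEAT1 was near the threshold for a bright gene, at 0.16. PNLDC1 and TEKT2 were among the genes whose neighbours differed more, with MRPL18 higher by 0.36 and AGO3 by 0.32. XLOC_001392, XLOC_002989 and XLOC_010367, called lower, had no bright gene upstream within 50 kb.

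CpG dinucleotides, which are dense in the promoters of many broadly expressed genes, were counted in the promoters. Among the 62 of the 113 genes with an entry in the RefSeq promoter table, a window from 250 bases before to 50 bases after the start held a median of 9 CG, against 24 over the 13199 genes tested that had an entry and 27.5 over 50 of the upstream neighbours. The genes called lower held a median of 8 over the 13 with an entry. Dim genes tested held a median of 13 and dim genes called higher 8. The pair FAM83E and RPL18 is printed as an example, with the 250 bases before each start on GRCh38.p14, minus strand, written 5′ to 3′ and with each CG in capitals. FAM83E has 7 of them and RPL18 has 25.
FAM83E, chr19:48615077-48615326: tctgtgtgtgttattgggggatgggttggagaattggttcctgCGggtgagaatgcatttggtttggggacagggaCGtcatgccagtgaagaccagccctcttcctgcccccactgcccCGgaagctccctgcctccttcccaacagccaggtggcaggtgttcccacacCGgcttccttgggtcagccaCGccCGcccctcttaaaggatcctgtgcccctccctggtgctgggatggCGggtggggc
RPL18, chr19:48619179-48619428: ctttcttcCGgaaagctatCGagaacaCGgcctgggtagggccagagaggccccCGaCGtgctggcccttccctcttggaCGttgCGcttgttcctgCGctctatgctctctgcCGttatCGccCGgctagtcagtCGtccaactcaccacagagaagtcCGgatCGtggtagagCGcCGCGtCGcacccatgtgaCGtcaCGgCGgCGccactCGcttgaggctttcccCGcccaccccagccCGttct

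The relation to an upstream gene was not limited to the genes called. Over the dim genes, the mean difference between LNA-NC and NC was largest where a bright gene lay 5 to 10 kb upstream on the same strand, at 0.61 in A549, 0.28 in PC14 and 0.50 in PC14CDDP over 166 genes. Below 5 kb the means were 0.25, 0.13 and 0.24 over 132 genes. Beyond 10 kb they fell with distance in each line, to 0.30, 0.08 and 0.12 at 20 to 50 kb over 793 genes, and to -0.05, -0.09 and -0.14 beyond 300 kb over 5042 genes. The medians at 5 to 10 kb were 0.34, 0.09 and 0.34. For a bright gene 5 to 10 kb downstream on the same strand the means were 0.13, 0.00 and -0.02 over 120 genes. With a bright gene under 5 kb downstream on the opposite strand they were 0.22, 0.04 and 0.10 over 403 genes. With one under 5 kb upstream on the opposite strand they were -0.08, -0.08 and -0.07 over 156 genes. Genes of one neighbourhood and probes of similar level are not independent, and no test was made.

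Set beside the other arrays of its line, LNA-NC stood highest by this measure. For the 633 dim genes with a bright gene less than 20 kb upstream on the same strand, the mean deviation from the 4 arrays of the line, minus that of the 5042 dim genes beyond 300 kb, came to 0.33, 0.11 and 0.25 for LNA-NC. For NC it was -0.15, -0.15 and -0.23, for pre-miR-197 -0.18, -0.07 and -0.16, and for LNA-miR-197 -0.01, 0.11 and 0.14. LNA-miR-197 came close to LNA-NC in PC14 and lay between LNA-NC and NC in A549 and PC14CDDP. The median difference between probes nearer to and farther from the 3′ end of the same gene was higher on the LNA-NC than on the NC array by 0.04 in A549, 0.04 in PC14 and 0.08 in PC14CDDP (exact sign-flip test, two-sided, p = 0.25, which is the smallest p that 3 lines allow). More probes were well above background with LNA-NC, by 0.14, 0.56 and 2.57 percentage points in the same order (exact sign-flip test, two-sided, p = 0.25). The part of either in the pattern was not tested.

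Among the genes called lower, the bright ones were few. ZNF444, a zinc finger protein, measured 3.93, 4.33 and 3.99 with NC and 2.58, 3.14 and 2.65 with LNA-NC, a difference of -1.29 ± 0.13 (limma adjusted p = 0.00865). The LNA-NC arrays were the lowest of each line, with pre-miR-197 at 3.82, 4.27 and 4.02 and LNA-miR-197 at 3.96, 4.66 and 4.63. FOXQ1, a forkhead factor of epithelial cells, fell by 0.89 ± 0.12 on the log2 scale (limma adjusted p = 0.0251), from 1.99, 3.66 and 5.5 to 0.97, 2.87 and 4.64. Its level differed more between lines than between controls. The others were dim: the cardiac myosin heavy chain gene MYH7 fell by 0.70, INHA, the inhibin alpha subunit, by 0.62, MEFV, the pyrin of familial Mediterranean fever, by 0.85, and the olfactory receptor OR1S1 by 0.79. TAAR8, a trace amine receptor, was well above background on all 3 NC arrays and on no LNA-NC array (0), at least 2.49-fold lower with LNA-NC. The genes called lower had a median level of -5.12, those called higher -2.74, and all genes tested -1.67. Of the 44, 15 were XLOC loci (34.1%), which made up 13.6% of all genes tested and 11.5% of the genes called higher.

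The miR-197 arrays, which share no array with this comparison, give a second reading of the same genes, between an LNA and a pre-miR molecule. The LNA molecule blocks miR-197 and the pre-miR molecule supplies it, so type of molecule and miR-197 activity cannot be told apart here. NC is labelled AllStar-NC and not as a pre-miR molecule. Over all genes the median difference between the miR-197 molecules was -0.07. Of all genes, 1454 were called higher with LNA-miR-197 than with pre-miR-197 (5.85%) and 1956 lower (7.87%). Of the 113 genes higher with LNA-NC, 96 were higher with LNA-miR-197 than with pre-miR-197, 48 of them called, and 1 was called the other way. These 48 are 42.5% of the 113 and 3.3% of the 1454. Of the 44 genes lower with LNA-NC, 42 were lower with LNA-miR-197 and 25 were called, which is 56.8% of the 44 and 1.28% of the 1956. Both comparisons share the estimate of the spread between arrays, since all 12 entered 1 fit.

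Single genes differed in this second reading. XLOC_009167 measured -5.99, -5.63 and -6.82 with pre-miR-197 and -1.64, -1.86 and -1.81 with LNA-miR-197, a difference of 4.37 (limma adjusted p = 0.00719). With pre-miR-197 its probe was well above background on 1 of 3 arrays. ACTL7B was well above background on no pre-miR-197 array (0) and was at least 7.91-fold higher with LNA-miR-197 (limma adjusted p = 0.0127), and GCNA differed by 2.31. MSH4 and TERB1 were well above background on no array (0) of either miR-197 molecule, so that no difference between these molecules was measured for them. ZNF444 differed by 0.38, against its -1.29 between the controls, and FOXQ1 by -1.11 (limma adjusted p = 0.00703). The genes called higher with LNA-miR-197 had a bright same-strand gene upstream in 20% of cases and those called lower in 13.6%, near the 18.2% of all genes.

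Against the mean of the miR-197 molecules, 299 genes were higher with LNA-NC (1.2%) and 201 lower (0.809%), and 368 were higher with NC (1.48%) and 388 lower (1.56%). These comparisons share their arrays with each other and with that of the controls, so their values are given side by side only. A bright same-strand gene lay upstream of 35.4% of the 299 genes higher with LNA-NC, of 13.4% of those higher with NC and of 19.8% of those lower with NC. Over the 113 genes called higher, the median level relative to the NC array of the same line was 0.14, 0.41 and 0.27 for pre-miR-197, and 0.78, 1.18 and 1.40 for LNA-miR-197. The 113 genes were picked as low on these NC arrays, so levels above NC on other arrays can follow from that choice.

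Lists of genes that respond to introduced nucleic acids or to stress held no called gene (0), beside 0.455% of all genes called higher and 0.177% lower, rates at which lists of this size would hold few or none. Of the interferon-stimulated genes, 30 were tested and 0 were called, with a median difference of -0.08 beside -0.04 over all genes. IFI27 differed by 0.67 and IFI35 by -0.51, with limma adjusted p-values of 0.203 and 0.246. Of 16 genes for sensors of RNA and DNA 0 were called. DHX58, the helicase LGP2, had the largest difference among them, from -2.61, -1.08 and -2.72 with NC to 0.23, -0.29 and 0.73 with LNA-NC, a difference of 2.36 ± 0.55 (limma adjusted p = 0.116). In PC14 its difference was 0.79. Of 25 small RNA pathway genes 0 were called, with DICER1, which cuts pre-miRNAs, at -0.57 ± 0.17 and the exonuclease XRN1 at 0.60 ± 0.15 (limma adjusted p = 0.182 and 0.133). At an unadjusted p under 0.05 there were 2, 2 and 7 genes in these lists, beside 3434 of all genes tested (13.8%).

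The lists for cytokines and stress differed between lines, with A549 on another slide than PC14 and PC14CDDP. Of 18 NF-kB and cytokine genes tested, 18 had a mean difference above 0, as did 42.3% of all genes tested, and 0 were called. The medians of the list were 0.85, -0.07 and 0.16 in A549, PC14 and PC14CDDP. Several members lay near background: CCL20, CCL2, PTGS2, CSF3 and ICAM1 were well above it on 1 of 3 arrays of each control. CXCL8, a neutrophil chemokine, differed by 1.87, 1.5 and 0.26 in these lines and CXCL1 by 1.97, -0.19 and 0.27. In PC14CDDP the CXCL8 levels, -8.09 with NC and -7.83 with LNA-NC, lay under the lowest signals well above background, -5.86 and -6.46. Of 19 genes of the integrated stress and unfolded protein response 0 were called, with the transcription factor ATF3 at 2.49, 1.38 and 0.69 and DDIT3 at 1.96, 0.78 and 0.32 (limma adjusted p = 0.383 and 0.332). HMOX1, heme oxygenase and a target of NRF2, had even differences in the 3 lines, 1.08, 1.14 and 1.11, and did not pass the test (limma adjusted p = 0.109). Its level was 4.71, 5.18 and 3.71 with NC, 5.79, 6.32 and 4.82 with LNA-NC and 6.37, 7.05 and 6.34 with pre-miR-197, so that the NC array was the lowest of these in every line.

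For the lists of growth and metabolism, the median difference was -0.09 over 24 mitosis genes, -0.10 over 23 DNA replication genes, -0.02 over 25 p53 targets, -0.14 over 24 cholesterol synthesis genes, -0.12 over 19 hypoxia and glycolysis genes, 0.05 over 20 immediate early genes, 0.00 over 18 NRF2 targets, -0.02 over 12 heat shock genes and -0.05 over 8 metallothionein and zinc genes, and 0 members of these lists were called. Of their members, 4 of 24 mitosis, 2 of 23 DNA replication, 2 of 24 cholesterol synthesis and 2 of 19 hypoxia and glycolysis genes had a mean difference above 0, as did 42.3% of all genes tested. The metallothionein and zinc list had medians of -0.43, 0.24 and -0.04 in the 3 lines. The 9 genes that the study follows were not called either. CKS1B, the cell cycle regulator, measured 6.48, 6.02 and 7.02 with NC and 6.38, 6.08 and 6.87 with LNA-NC, a difference of -0.06 ± 0.09 (limma adjusted p = 0.817). CD274, which encodes PD-L1, differed by -0.10 ± 0.25 and STAT3 by -0.17 ± 0.18. CCND1, or cyclin D1, had the lowest p among them, with -0.31 ± 0.12 (limma adjusted p = 0.297). Of the 9 epithelial markers 0 were called, and of 9 tested markers of blood, vessel and fibroblast cells 0 were called. Of the latter, 7 of 12 on the array were well above background on all 3 arrays of each control, CD68 and CD79A among them, and their summed linear level ranged from 4.84 to 6.58 on the NC arrays and from 5.33 to 6.90 on the LNA-NC arrays, relative to the 75th percentile.

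Of 298 small nucleolar RNA genes, 67 histone genes, 82 ribosomal protein genes and 50 keratin-associated protein genes, 0 were called in either direction, with median differences of -0.16, -0.25, -0.08 and -0.06. Of 3381 XLOC loci 13 were called higher (0.385%) and 15 lower (0.444%), beside 0.455% and 0.177% of all genes tested. By fold alone, with the called genes included, 1166 genes were higher by at least 1.2-fold in all 3 lines (4.69%) and 1077 lower (4.33%). The differences of single genes were only loosely shared between lines: across the 24858 genes, Pearson's r was 0.34 between A549 and PC14, 0.39 between A549 and PC14CDDP and 0.45 between PC14 and PC14CDDP. PC14 and PC14CDDP are related lines and shared a slide, while A549 was on another. Genes are not independent replicates, and levels near background add to the spread.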

How the data were processed

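Per the file headers, the scans were read by Agilent Feature Extraction 10.7.3.1. The authors deposited intensity per spot, as pixel mean, local background and a background-subtracted processed signal with no scaling between arrays, and flags. Their separate value table held the same intensity on every spot. Control and outlier spots were left out and spots of a probe averaged. The log2 signal was taken minus the array's 75th percentile. Probes well above background on at least 3 of 12 arrays were kept, the brightest per gene. Of 50599 probes, 106 with missing values were dropped and 55.7% were matched to RefSeq names. limma 3.58.1 (R 4.3.3) was fitted and tested on simulated data. The number of arrays limits the precision. Each transfection was made once per line, so p-values rest on how differences between transfections vary from line to line. That spread was estimated over all 12 arrays, the miR-197 arrays included, and moderated across genes. A bound ("at least") compares the brighter group's mean with the dimmer group's, each dim array being raised to the lowest signal well above background where it lay under it.

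The members and lists were chosen with earlier results of these data known. Named genes were the 10 largest called changes each way with a probe above background on all 6 control arrays (filled by lowest p), the 5 largest bounds each way, the study's genes, and up to 4 members of each list with the lowest p. All other genes named were chosen after their values were seen. Each setting listed at the end was varied one at a time. Names of array design loci were kept as in the files.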

Additional observations from a re-analysis of the deposited data

How the results depend on the processing

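The count of genes called between the controls, 157, was within 1.5 times of that with quantile normalization, median centring, normexp, the deposited value table, filters on 12 or 6 arrays or the mean of probes. The genes called were not all the same: 95 of the 157 were among the 195 called with normexp. The filters on 12 and 6 arrays kept only 85 and 89 of the 157, and these were called again, among 194 and 165 genes. The count was 90 with no filter on dim probes, 44 with slide as a block and 293 with trend and robust eBayes. It was 6 without the cell line as replicate block and 0 in a fit on only the 6 control arrays (3980 genes at an unadjusted p under 0.05). The methods' t-test called 0 after adjustment and 768 at an unadjusted p under 0.05. With 1 cell line left out it was 0 to 6. The count for LNA-miR-197 against pre-miR-197, 3410, was 1454 with no filter, 33 with slide as a block, and 0 without the block, on 6 arrays or by the t-test, and 0 to 233 with a line left out. Changes of at least 1.2-fold in all lines (2243) numbered 713 with normexp, 1161 with the filter on 12 arrays and 1262 with that on 6, and 3459 to 4582 with a line left out. Changes of at least 2-fold on average (954) numbered 137 with normexp, 1863 with no filter, 199 and 226 with the filters on 12 and 6 arrays, and 1015 to 1287 with a line left out. All 157 genes kept their direction in every fit that tested them, but in many of these fits it could not change. The log2 differences were the same whatever the block, the eBayes setting or the test, on only the 6 control arrays, and with the deposited value table. With a line left out, the sign was fixed by the 1 direction across the lines. Of the 102 named genes 9, none (0) of them called, changed sign in a fit. With the mean of probes these were ABCC2 (-0.0016), CD274 (0.027), CLDN4 (-0.052) and CTNND1 (-0.033, and -0.0075 with normexp), and with quantile normalization CKS1B (0.0081) and MT2A (0.028). With a line left out HK2 ranged from -0.0096 to 0.918, MT1H from -0.346 to 0.117, MT2A from -0.179 to 0.040 and MYC from -0.138 to 0.096. The other values of the named genes kept their direction, with 217 of them losing a call and 11 gaining one. The share of genes called higher with a bright gene upstream on the same strand, 54.5%, was chosen after seeing the data. It ranged from 45.2% to 59.6% in the other fits that called at least 20 genes higher, and was 45.5% within 30 kb (all genes 12%), 72.3% within 100 kb (29.4%), 36.6% for neighbours with a level over 2 (10.9%) and 67.9% for neighbours above background on all arrays (31.5%). Most genes called lower lay near background, where these arrays give bounds more than levels.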
